A study of Arabidopsis thaliana with 53 samples.

Results

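The guard cell peak list made at 100 ppm CO2 held 18999 regions of open chromatin, and 1809 of them (9.52%) shared no base with any peak of the list made at 1000 ppm CO2. These 1809 regions, called 100 ppm-only peaks here, were chosen by comparing those lists, so their absence at 1000 ppm is the choice itself and not a result. All 18 lists of the series together held 353370 peaks. The reverse set, peaks of the 1000 ppm list that shared no base with the 100 ppm list, numbered 1420 of 19341 (7.34%).

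Stomata are pores in the leaf surface, each bordered by a pair of guard cells. They open when CO2 inside the leaf is low and close when CO2 is high or when the hormone abscisic acid (ABA) accumulates in drought. Opening is driven by proton pumping and uptake of potassium and malate, and closure by loss of those ions through anion and potassium channels. ABA is read by soluble receptors that inhibit PP2C phosphatases and so free SnRK2 kinases, which activate bZIP transcription factors including ABF1 to ABF4. ATAC-seq uses the Tn5 transposase to insert sequencing adapters into accessible DNA, and a peak is a stretch where insertions pile up.

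The CO2 groups were nuclei of Col-0 guard cells from plants kept for 4 h at 100 or at 1000 ppm CO2, with 3 samples in each group. A separate spray experiment gave guard cell lists after control treatment for 4 h, after 50 µM ABA for 4 h and for 24 h, and, from the abf1/2/3/4 quadruple mutant, after control treatment and after ABA for 4 h, again with 3 samples each. The guard cell control was thus not a CO2 chamber sample. The other 11 lists came from mesophyll (control and ABA 4 h, 4 samples each), seedlings (control and ABA 4 h, 2 each), wild-type roots (control and ABA for 45 min, 2 h and 4 h, 3 each) and abf1/2/3/4 roots (control, 3 samples; ABA 45 min, 2 samples; ABA 2 h, 3 samples, whose treatment time is also labelled 4 h). All nuclei carried an H2B-EGFP marker and were sorted by fluorescence, but the promoter that drives the marker is not given in the sources used here.

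Each group has 1 pooled list and no values per sample, so no comparison below has a replicate check or a test. Ranges beside shares are exact (Clopper-Pearson) 95% binomial intervals, in which each peak counts as an independent draw and nothing beyond counting error is included. Depth per sample is unknown, and the lists ranged from 15345 to 27514 peaks. As a check of the labelled cell type, marker genes with at least 1 peak inside or up to 1500 bp away were counted. The 100 ppm list had such a peak at 10 of 11 guard cell, 3 of 8 root, 4 of 4 mesophyll and 4 of 5 leaf epidermis and phloem markers. The same counts held in the 1000 ppm list. Guard cell markers had 4 of 11 in the mesophyll control and 6 of 11 in the root control. Mesophyll markers also had 4 of 4 in the mesophyll control, so they do not separate these cell types.

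The 100 ppm-only peaks were weak and narrow. Their −log10 p, the authors' significance value for a peak, ran from 3.31 to 16.01 with a median of 5.09, whereas the 17190 peaks shared with the 1000 ppm list had a median of 10.4. Their median width was 263 bp, from 100 to 1936 bp, against 427 bp for the shared peaks. Ranked by −log10 p, 1768 of them (97.7%) lay in the lower 50% of the 100 ppm list. A −log10 p of 10 was reached by 31, and 40 were at least 1000 bp wide, the widest near MST1, a sulfurtransferase gene (1936 bp). The reverse set had 1 peak of that strength and 0 of that width, with a median −log10 p of 4.73 and a median width of 236 bp. The whole lists differed in the same direction. A −log10 p of 10 was reached by 48.1% of all 100 ppm and 39.2% of all 1000 ppm peaks. A width of 1000 bp was reached by 11.6% and 7.63%. These values are not scaled between lists, so the sets are not compared in strength.

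**Figure D1:**
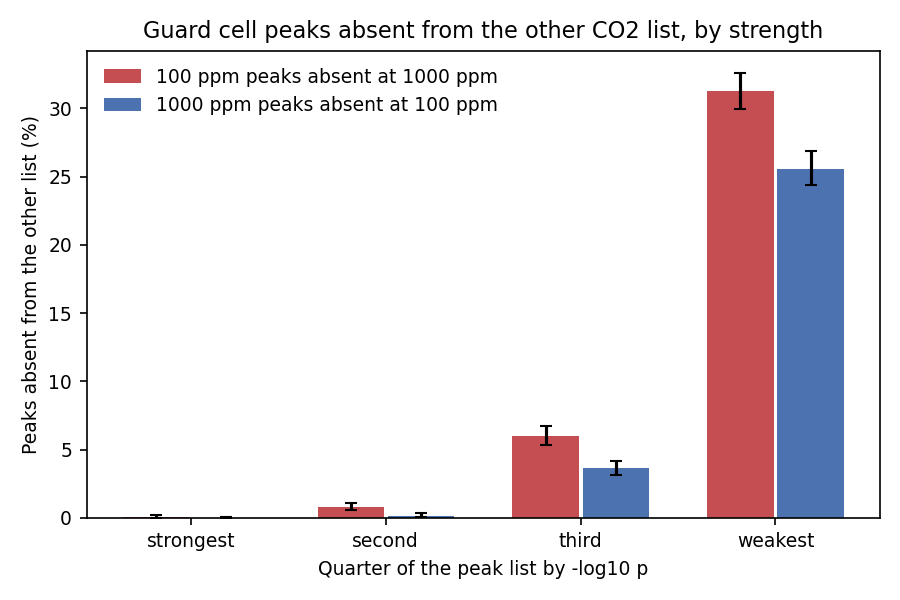
Share of peaks absent from the other CO2 list (%), with exact 95% binomial intervals, in 4 equal groups of rank by −log10 p, for the 100 ppm list (red) and the 1000 ppm list (blue). Of the weakest group, 31.2% of 100 ppm peaks and 25.6% of 1000 ppm peaks were absent from the other list, and of the strongest group 0.0632% and 0%.

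Absence from the 1000 ppm list was graded by strength. From the strongest to the weakest of 4 equal groups of rank, 3, 38, 284 and 1484 peaks were 100 ppm-only, or 0.0632%, 0.800%, 5.98% and 31.2%. The corresponding shares of 1000 ppm-only peaks were 0%, 0.165%, 3.62% and 25.6%. Within the next-weakest group the 100 ppm-only peaks were wider than the shared peaks, at a median of 392 against 317 bp, while within the weakest group the medians were 246 and 234 bp.

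The median gap from a 100 ppm-only peak to the nearest 1000 ppm peak was 756 bp. From a 1000 ppm-only peak to the nearest 100 ppm peak it was 2460 bp. Of the 1809 members, 704 (38.9%) had a 1000 ppm peak within 500 bp, and 68 (3.76%) had none within 5000 bp. Such shares are not given for the reverse set. Just inside the limit of the choice were peaks at AT1G21670, AT4G22560 and CSLA02, which lay 93, 95 and 96 bp from a 1000 ppm peak. Just outside it were peaks at ABCB4, GPX7 and AT4G18300, which shared 42, 54 and 99 bp with one. A 1000 ppm-only peak lay within 500 bp of 18 members (0.995%), a share for which no background is given. A 100 ppm peak shared with the 1000 ppm list lay within 500 bp of 752 members (41.6%).

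The strongest 100 ppm-only peak lay 811 bp from an end of AGP7, an arabinogalactan protein gene, at chr5:26129771-26130796. Its −log10 p was 16.01 and its rank 3503, and it shared bases with a peak in all 16 lists outside the CO2 experiment. In the guard cell lists its overlapping peak had a −log10 p of 7.90 in the control, 8.45 after ABA for 4 h, 7.33 after 24 h, 6.08 in the abf1/2/3/4 control and 3.64 in that mutant after ABA. The region was thus listed in every group except that at 1000 ppm. A −log10 p comes from its own list and is not scaled between lists, so such values describe each list and their sizes are not compared.

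PIN3, which encodes an auxin efflux carrier, had the next peak, at chr1:26745894-26746923, 46 bp from the gene's end, with a −log10 p of 14.9. It recurred in the guard cell control (5.63), in the abf1/2/3/4 guard cell control (7.01) and in the 4 wild-type root lists (4.74 to 7.94), but in none of the 3 ABA-treated guard cell lists. The next peak, of 14.7, covered chr3:19402125-19403845 inside AT3G52320 and had the opposite distribution. Of the 16 lists it was present in the 3 ABA-treated guard cell lists, at 3.92 (4 h), 4.07 (24 h) and 5.67 (abf1/2/3/4, 4 h) and in no control or other tissue.

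Of the other 7 among the 10 highest-ranked, 3 were found in the guard cell control and the abf1/2/3/4 guard cell control and in no other list. These were the peaks near APRL6 (13.4 at 100 ppm, 5.69 in the control and 6.37 in the abf control), inside AT4G31000 (13.2, 5.54 and 6.06) and beside ACHT4, an atypical thioredoxin gene (12.9, 4.91 and 5.29). The peak of TCH4, a touch-induced gene for a cell-wall xyloglucan-modifying enzyme, had 13.1 at 100 ppm. It recurred in 10 lists, including the guard cell control (9.25) and the mesophyll list after ABA (10.2), but in neither wild-type nor abf1/2/3/4 guard cells after ABA for 4 h. AT3G50620 (13.8), AT3G57020 (13.2) and AT1G29640 (12.2) recurred in 3, 5 and 11 lists.

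Peaks found at 100 ppm and in none of the 17 other lists numbered 374 (20.7%, interval 18.8 to 22.6%), against 2.03% of all 100 ppm peaks found in none of the 16 lists outside the CO2 experiment. Their median −log10 p was 4.76. The strongest lay inside ORC2, for a subunit of the origin recognition complex, at chr2:15760592-15761572 with a value of 9.54. It was followed by peaks inside CDSP32, a chloroplast thioredoxin-type gene (9.39, chr1:28548828-28549066), and near AT5G23760 (9.09), DWF1, a brassinosteroid synthesis gene (8.56), and TOM20-3, a mitochondrial import receptor gene (8.52). Peaks at ROP2, a small GTPase gene (9.97), and GH9B8, a glycosyl hydrolase gene (9.78), were in no other guard cell list but appeared in 1 root list each, at 4.49 (control) and 4.50 (ABA 4 h).

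**Figure D2:**
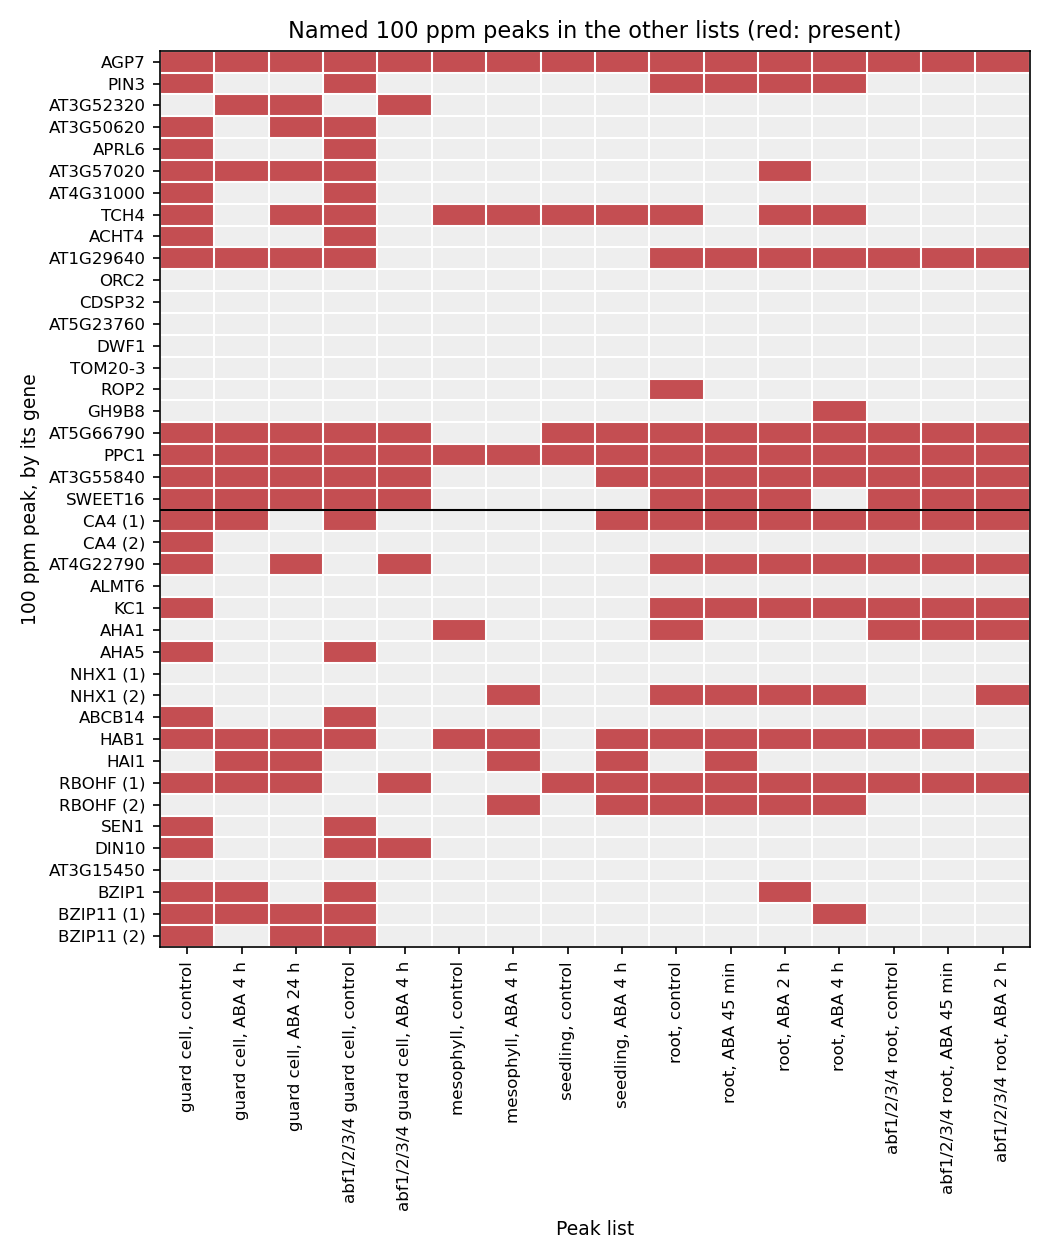
Presence (red) or absence (grey) of 41 named 100 ppm-only peaks (rows, by gene) in the 16 lists outside the CO2 experiment (columns); the 21 rows above the line were named by strength or recurrence and the 20 below lie at genes of CO2, ion transport, ABA and sugar starvation lists. AGP7 and PPC1 are red in every column, and ORC2, CDSP32, AT5G23760, DWF1, TOM20-3, ALMT6, the first NHX1 peak and AT3G15450 in none.

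The untreated guard cell list held 943 of the 1809 peaks (52.1%, 49.8 to 54.5%). The same list held 95.1% of all 100 ppm peaks, 98.5% of shared peaks in the weakest 25% of ranks and 86.1% of 1000 ppm-only peaks. Members thus recurred there less often than shared peaks of the weakest ranks. Shared peaks were picked for presence in a second guard cell list, so this difference follows at least in part from the choice. The same limit holds for every comparison of recurrence with shared peaks below. The 41 members in the stronger 50% of ranks were found there in 31 cases (75.6%, 59.7 to 87.6%), against 100% of shared peaks of those ranks. Where a member was found in the control, 97.1% of the matched control peaks were themselves in the lower 50% of that list. A match can be a wider peak that also reaches a 1000 ppm peak, which was so for 30 of the 943 (3.18%), for 79 of the 330 matched after ABA for 4 h (23.9%) and for 83 of the 593 matched in the root control (14.0%).

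After ABA for 4 h the guard cell list held 330 members (18.2%, 16.5 to 20.1%; all 100 ppm peaks 80.5%), and after 24 h it held 468 (25.9%, 23.9 to 28.0%; 86.8%). In abf1/2/3/4 guard cells the control list held 623 (34.4%, 32.2 to 36.7%; 91.4%) and the ABA 4 h list 189 (10.4%, 9.08 to 11.9%; 84.4%). For 1000 ppm-only peaks the shares in these 4 lists were 57.3%, 58.7%, 64.4% and 73.9%. Thus the lowest share of 100 ppm-only peaks and, after the wild-type control, the highest share of 1000 ppm-only peaks fell in the same list, that of ABA-treated abf1/2/3/4 guard cells. The 1000 ppm-only share was above the 100 ppm-only share in all 16 lists, by 18.9 to 63.4 percentage points. With these 16 lists cut to their 15345 highest-ranked peaks and both CO2 sets kept whole, the difference was 8.49 to 40.3 points.

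**Figure D3:**
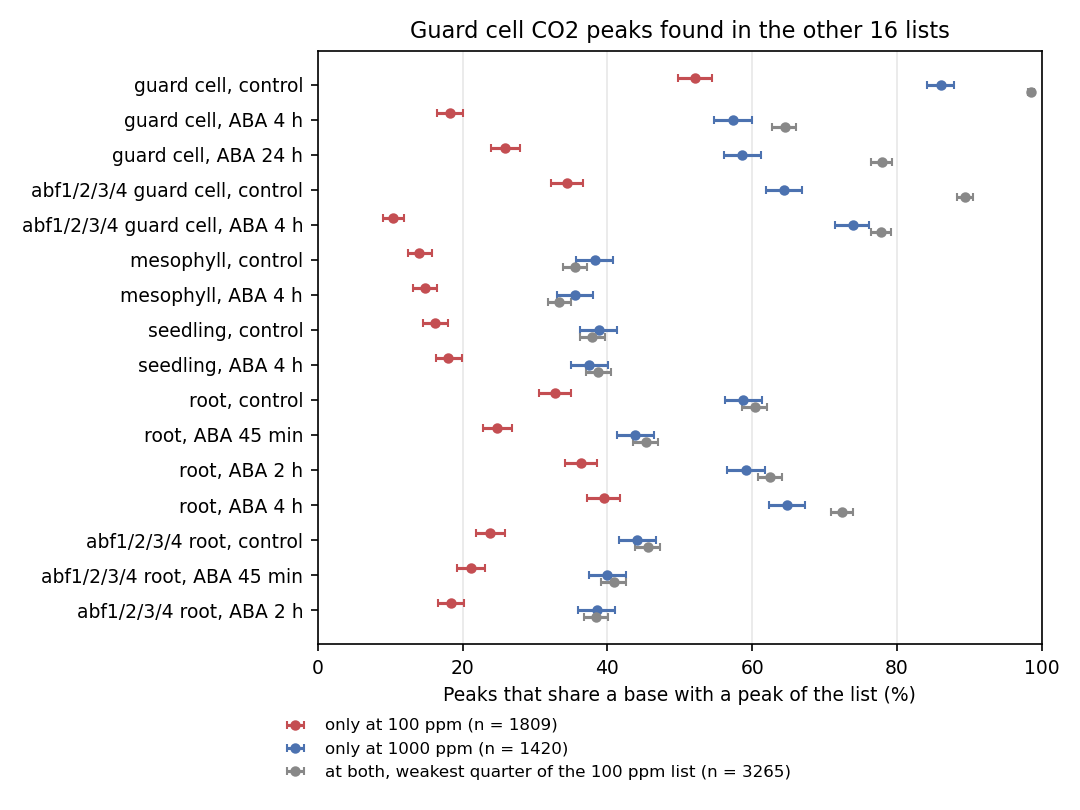
Share of peaks (%) that share at least 1 base with a peak of each of the 16 lists, with exact 95% binomial intervals, for 1809 peaks only at 100 ppm (red), 1420 only at 1000 ppm (blue) and 3265 shared peaks in the weakest 25% of the 100 ppm list (grey). Red lies left of blue and grey in every list, from 10.4% in abf1/2/3/4 guard cells after ABA to 52.1% in the guard cell control.

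The levels of these shares changed when the searched lists were cut to equal length. The members were kept as the same 1809 peaks, with a median rank of 16848 in the 100 ppm list. Most members thus ranked below the cut in their own list. With the 15345 highest-ranked peaks of each searched list, the share of members found fell to 5.36% in the control and 5.03% in the abf1/2/3/4 control. It was 13.2% after ABA for 4 h, 11.8% after 24 h and 4.09% in the mutant after ABA. The order of wild-type control and ABA lists therefore turned, because the control matches were almost all low-ranked peaks of a longer list (20954 peaks, against 17891 after ABA for 4 h). Whether members were found more in the control or after ABA thus depended on the length of the lists.

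The split by treatment changed with the cut as well. Of the 1809, 612 (33.8%) were in a control list and in no ABA list of guard cells, 160 (8.84%) the reverse, 437 (24.2%) in both kinds and 600 (33.2%) in none of the 5 lists. A control list without an ABA list held 11.1% of weak shared peaks and 14.7% of 1000 ppm-only peaks, and the reverse held 0.459% and 7.04%. Over all 100 ppm peaks, 3.24% were in none of the 5 and 75.5% in all 5, compared with 45 members (2.49%) in all 5. With the 5 searched lists cut to equal length and the 1809 members kept, 5.69% were in a control list alone and 15.8% in an ABA list alone, which reverses their order.

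Among members already present in a control list, few were also present after ABA. Of the 943 in the wild-type control, 224 (23.8%, 21.1 to 26.6%) were in the ABA 4 h list and 318 (33.7%, 30.7 to 36.8%) in the 24 h list. For the weakest 25% of all control peaks these shares were 41.5% and 53.5%, and for 1000 ppm-only peaks in the control 59.1% and 60.2%. In abf1/2/3/4, 113 of 623 (18.1%, 15.2 to 21.4%) were also in the ABA list, against 63.2% for the weakest 25% of that control list and 79.0% for 1000 ppm-only peaks. At full list length the share of members lay below those of the other sets in both genotypes. The difference between genotypes was not tested. With equal list lengths the wild-type shares were 28.9% at 4 h and 27.8% at 24 h of 97 members, and the mutant share 9.89% of 91. Such shares are not given for the other sets, so their order at equal length was not checked.

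**Figure D4:**
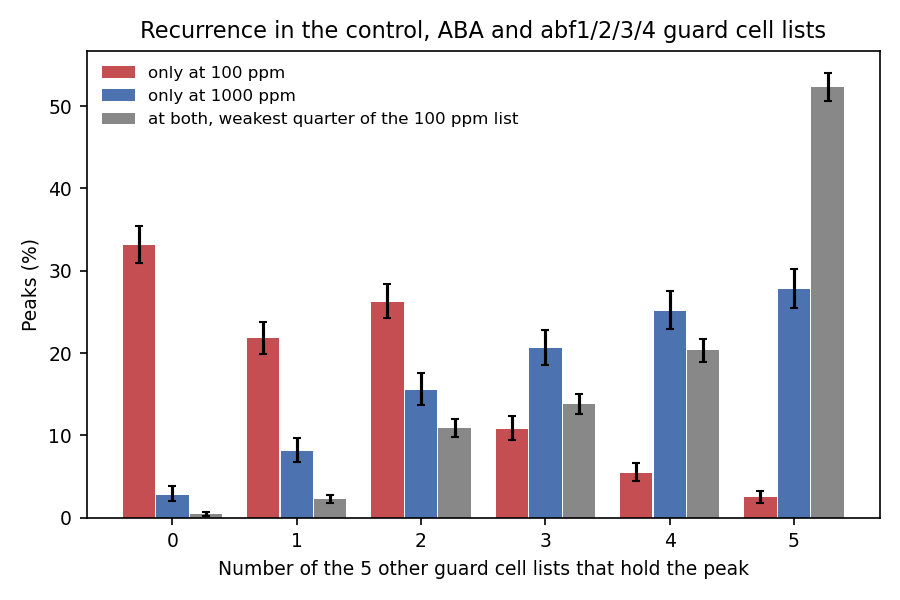
Share of peaks (%) by the number of the 5 guard cell lists of the spray experiment that hold them, with exact 95% binomial intervals, for peaks only at 100 ppm (red), only at 1000 ppm (blue) and shared peaks of the weakest 25% of ranks (grey). At 0 lists stand 33.2% of the 100 ppm-only and 2.82% of the 1000 ppm-only peaks, and at 5 lists 2.49% and 27.7%.

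Among members found in at least 1 of the 5 lists, the most common patterns were presence in both control lists and no ABA list (303 members, 16.7% of all) and in the wild-type control alone (237, 13.1%). Of all shared peaks 3.06% and 0.454% had these patterns. The 5 strongest of the 45 members found in all 5 lists lay near AGP7, AT5G66790 (9.41), PPC1, which encodes a phosphoenolpyruvate carboxylase (8.56), AT3G55840 (8.21) and SWEET16, a vacuolar sugar transporter gene (7.71). At PPC1 the matching peak had a −log10 p of 5.79 in the control, 8.38 and 12.2 after ABA for 4 and 24 h, 4.80 in the mutant control and 6.003 in the mutant after ABA. This region was also listed in all 11 lists of other tissues.

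Each root list held a larger share of the members than the mesophyll and seedling lists, although 18.4% in abf1/2/3/4 roots after ABA for 2 h and 18.02% in seedlings after ABA have overlapping intervals. Members were found in 32.8% of cases in the root control, 24.8%, 36.3% and 39.5% after ABA for 45 min, 2 h and 4 h, and 23.8%, 21.1% and 18.4% in the abf1/2/3/4 root lists (control, 45 min and 2 h). The same lists held 76.3%, 68.5%, 77.7%, 81.8%, 68%, 64.8% and 62.7% of all 100 ppm peaks. Mesophyll lists held 14.0% (control) and 14.8% (ABA) of members, and seedling lists 16.3% and 18.02%, against 61.3%, 59.9%, 65.8% and 67.1% of all 100 ppm peaks. The root control and the root lists after ABA for 2 h and 4 h were the 3 longest of the series, with 25604 to 27514 peaks. With every searched list cut to 15345 peaks and all members kept, the shares were 17.3% in the root control and 16.9%, 19.6% and 19.02% after ABA for 45 min, 2 h and 4 h. They were 15.04% to 17.3% in abf1/2/3/4 roots and 12.9% to 14.9% in mesophyll and seedlings. The distance between roots and leaves was thus smaller after the cut. The cut removed most peaks from the longest lists and none from mesophyll after ABA, and the cause was not tested.

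Across 7 root lists and 4 mesophyll and seedling lists, unequal numbers that favour a root match, 464 members (25.6%) were in root lists alone, 101 (5.58%) in mesophyll or seedling lists alone, 406 (22.4%) in both and 838 (46.3%) in neither. The same shares were 25.1%, 6.09%, 51.2% and 17.6% for weak shared peaks and 23.9%, 8.38%, 47.5% and 20.3% for 1000 ppm-only peaks. The members thus stood apart in being in both or neither, and their share in roots alone was near those of the other sets. Of the 600 members in no other guard cell list, 226 were in another tissue and 192 of those were in a root list. Of the 593 root control peaks matched by members, 57.7% lay in the lower 50% of that list.

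Summits of members lay inside a protein-coding gene in 871 cases (48.1%, 45.8 to 50.5%), within 1 kb of a gene in 656 (36.3%) and elsewhere in 282 (15.6%). In the weakest 25% of shared peaks these shares were 47.5%, 41.0% and 11.5%, and for 1000 ppm-only peaks 39.0%, 42.5% and 18.5%. Members were less tied to gene ends. Within 150 bp of an end lay 36.2% of their summits (33.9 to 38.4%), against 53.2% (51.5 to 54.95%) for the weak shared peaks and 42.2% for 1000 ppm-only peaks. Summits inside a gene and more than 300 bp from either end made up 15.98%, 10.4% and 10.14%. The gene table gives no strand or exons, so the start and end of a gene were not separated.

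Position varied with recurrence. Among the 374 members in no other list 62.6% (57.4 to 67.5%) lay inside a gene, and among the 45 in all 5 guard cell lists 17.8% (8.002 to 32.1%). Of these 45, 42.2% (27.7 to 57.8%) lay more than 1 kb from any protein-coding gene. Members in an ABA list without a control list were inside a gene in 36.3% and members in a control list without an ABA list in 49.7%. Transfer RNA genes held 5 member summits (0.276%), 7 summits of 1000 ppm-only peaks (0.493%) and 182 summits of shared peaks of all ranks (1.06%). A share for the weak shared peaks is not given.

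**Figure D5:**
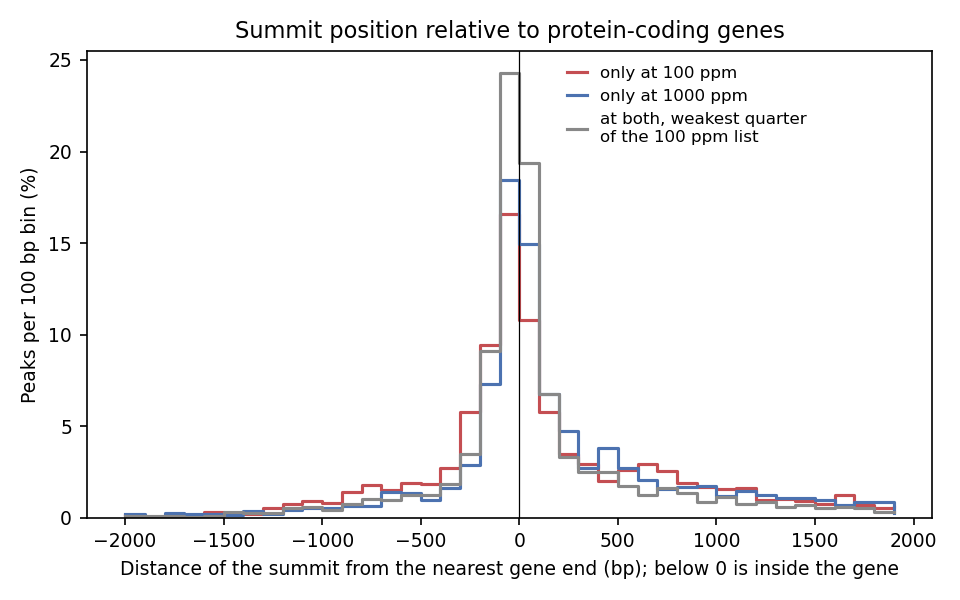
Share of summits (%) per 100 bp of distance from the nearest gene end, negative inside the gene, for peaks only at 100 ppm (red), only at 1000 ppm (blue) and shared peaks of the weakest 25% of ranks (grey). The red line is lowest in the bins that touch 0 and above both other lines from 200 to 300 bp inside; in all, 15.98% of red summits lie more than 300 bp inside a gene.

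The members were spread over many genes. Their nearest or holding genes numbered 1625, of which 1465 had 1 member, 137 had 2, 22 had 3 and 1, AT1G36060, had 4. Within 1500 bp, 2419 protein-coding genes had a member, or 8.81% of 27444, and 1985 of these (82.1%) also had a shared 100 ppm peak. Genes with 3 members included AT3G50620, the bZIP factor gene bZIP44, the sucrose transporter gene SUC1, and RGL2 and TCP2, which encode a DELLA growth repressor and a TCP factor. Genes with a 1000 ppm-only peak within 1500 bp numbered 1986 (7.24%), and 111 genes had both kinds, which is 4.59% of the former and 5.59% of the latter.

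Gene lists for stomatal and metabolic pathways were chosen with earlier results of these data known, and their counts are descriptions. Of 142 genes in 9 lists, 29 had a member inside or within 1500 bp and 14 had a 1000 ppm-only peak. At 1500 bp, 8.81% of all protein-coding genes had a member, and 12.7% of those with any 100 ppm peak. With 500 bp or 3000 bp in place of 1500 bp, 23 or 36 of the 142 had one, against 6.14% or 12.9% of all protein-coding genes. Most genes of each of the 9 lists had a 100 ppm peak, so a share among all protein-coding genes is a low background for them. The share among genes with a 100 ppm peak is not given for 500 or 3000 bp. For CO2 signalling 2 of 12 genes had a member, for guard cell ion transport 6 of 22, for light and opening 3 of 15, for stomatal development 4 of 22, for core ABA signalling 3 of 24, for photorespiration 5 of 17, for sugar starvation 5 of 10, for the circadian clock 1 of 10 and for ABA-responsive genes 0 of 10. Counts of genes with a 1000 ppm-only peak, in the same order, were 1, 3, 1, 2, 3, 2, 0, 1 and 1. For AHA1, SCRM, GLDP1, DIT2.1, SEN1, AT3G15450, RBCS1A and CRY1 the summit of the member lay nearer to, or inside, a neighbouring gene, so the listed gene is not the only candidate. Guard cell markers had 0 of 11, root markers 0 of 8 and mesophyll markers 2 of 4.

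In CO2 signalling BCA4, a carbonic anhydrase that converts CO2 to bicarbonate for stomatal CO2 sensing, had 2 members inside the gene, at chr1:26537051-26537359 (−log10 p 7.24) and chr1:26535821-26535995 (5.19). Both were in the guard cell control, at 5.79 and 4.92, and the first was also in the ABA 4 h list at 4.18 and in the mutant control at 5.20. A 1000 ppm-only peak of 4.41 lay in the same gene. AT4G22790 had a member of 6.11 that also occurred in the control (5.31). Neither HT1 nor OST1 nor MPK12, kinases of CO2 and ABA closure, had a member.

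Ion transport genes with members were ALMT6, a vacuolar malate channel (4.75), KAT3, a regulatory potassium channel subunit (8.22), the plasma membrane proton pumps AHA1 (4.27) and AHA5 (5.39), the vacuolar cation exchanger NHX1 (8.12 and 6.18) and ABCB14, a malate importer (4.93). Those of AHA5 and ABCB14 recurred in both control lists, at 5.97 and 4.53 for AHA5 and at 9.36 and 6.30 for ABCB14, and in no ABA list of guard cells. ABCB14 also held a 1000 ppm-only peak (4.65), 116 bp from the member, and both met the same control peaks, so each CO2 list held a piece of 1 wider control region. KAT3 had a match in the wild-type control (3.91), and neither ALMT6, AHA1 nor NHX1 had one in any other guard cell list. For AHA1 the member lay 1094 bp from the gene, and AT2G18969 was nearer to its summit.

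Sugar starvation genes with members were DIN10, dark-inducible and linked to raffinose breakdown (9.90, and with 1699 bp among the 3 widest members), SEN1 (5.68), AT3G15450 (4.46), and the genes of the energy and sucrose signalling factors bZIP1 (5.12) and bZIP11 (8.67 and 5.19). DIN10 was 8.47 in the guard cell control, 6.53 in the mutant control and 4.21 in the mutant after ABA, and in no wild-type ABA list. The stronger bZIP11 region was 5.38 in the control, 4.41 after ABA for 4 h, 12.6 after 24 h and 5.65 in the mutant control. The background for its 5 of 10 is 12.7%.

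Photorespiration genes recycle the product of oxygenation by Rubisco. Members lay at CAT2, a catalase (4.63), GLDP1, a glycine decarboxylase subunit (6.27), AT1G80380 (4.82), AGT1, an aminotransferase of the peroxisome (4.68), and DIT2.1, a plastid dicarboxylate transporter (4.77). Of these DIT2.1 alone had a match in another guard cell list, at 4.65 in the control. The mesophyll markers RBCS1A (4.26) and LHCB1.1 (5.24) also had a member each, absent from all 5 guard cell lists of the spray experiment. Both mesophyll lists (control and ABA) held a peak matching the members of CAT2 (8.77 and 9.20), AGT1 (11.4 and 7.47) and LHCB1.1 (17.9 and 4.51), but not those of RBCS1A, GLDP1, AT1G80380 or DIT2.1. The part of nuclei from other leaf cells in such peaks was not tested.

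Among ABA signalling genes HAB1, a PP2C phosphatase, had a broad member at chr1:27393148-27394496 (12.0). It recurred at 5.73, 6.69 and 6.92 in the wild-type control and ABA lists (4 and 24 h) and at 5.94 in the mutant control. HAI1, another PP2C, had a member of 6.75 that was absent from the control lists and listed at 16.04 and 15.9 after ABA for 4 and 24 h in wild type, and absent in the mutant after ABA. RBOHF, an NADPH oxidase, had members of 6.29 and 4.88.

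Development genes with a member were MUTE, a bHLH factor of guard mother cell formation (5.64), SCRM, its partner (6.28), BASL, a polarity protein of stomatal precursors (4.24), and HIC, which limits stomatal number at high CO2 (7.07). MUTE recurred in the ABA 24 h list alone among guard cell lists (5.80), HIC in both control lists, and SCRM and BASL in none. Light-related genes were CRY1, a blue-light receptor (13.4, the peak near APRL6), BAM1, a β-amylase of guard cell starch (5.33), and AT4G18950 (8.64). The clock gene PRR5 had a member of 7.47, with 11.9 for its match in the guard cell control. Of leaf epidermis and phloem markers 1 of 5, ATML1, had a member (5.51).

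Along the chromosomes, 100 ppm-only peaks were scarce where peaks in general were scarce. In the 15 windows of 1 Mb with fewer than 50 guard cell control peaks, 11 of 309 peaks at 100 ppm were members (3.56%, 1.79 to 6.28%), against 9.62% in the other 106 windows. For 1000 ppm-only peaks the order was opposite, with 66 of 351 (18.8%, 14.9 to 23.3%) in the peak-poor windows and 7.13% elsewhere. Of the 15 windows, 11 held no member. Most of the 11 members lay in chromosome 1, 13 to 14 Mb (5 of 42 peaks, 11.9%), and chromosome 2, 5 to 6 Mb (4 of 36, 11.1%). Both shares were above the 9.62% of the other windows, so the low share did not hold in every peak-poor window. Restricted to the lower 50% of ranks, members were 6.21% of 177 peaks (3.14 to 10.8%) in peak-poor windows and 18.8% of 9322 elsewhere.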

How the data were processed

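The 53 samples were grouped by titles and characteristics into 18 groups. Deposited were peak lists in narrowPeak layout, 1 for each group, without any column per sample (0). How replicates were merged and the role and settings of the peak caller are not given in the sources used here. The submitters' processing notes name Trim Galore 0.6.5, cutadapt, SAMtools, Picard, bedtools 2.30 and Genrich without role or order, and the build TAIR10. The deposited −log10 p of each peak is the authors' value and uncorrected, since every row has −1 in column 9, where a q-value would stand. The area score of the deposited lists was never below 200, and the other score is that area per base, scaled and capped. These were used only to rank or describe peaks within a list.

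A peak was a 100 ppm-only peak if it shared 0 bases with the 1000 ppm list, and was found in another list if at least 1 base was shared. The members, the gene lists and the comparisons were chosen with earlier results of these data known. Genes came from a RefSeq table of TAIR10.1 (names and positions of 27444 protein-coding genes). As a check of the build, 51.0% of the 18999 summits were at most 150 bp away from the end of a gene, and 13.3% and 13.8% were after a move of 5 kb to the left or right. Named peaks were the 10 highest-ranked, the 5 highest-ranked found in none of the 17 other lists, in no other guard cell list and in all 5 spray-experiment guard cell lists, the 3 widest, the 3 nearest to each side of the limit, and those at listed genes. Overlap counts were checked on simulated intervals. Python 3.11.15, numpy 2.4.6, pandas 2.3.3 and scipy 1.17.1 were used.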

Additional observations from a re-analysis of the deposited data

How the results depend on the processing

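No paired analysis was possible because the replicate numbers in the labels belong to samples and each group has 1 pooled list. For the same reason no replicate could be left out. Motif shares were not run. The share of 100 ppm-only peaks among 100 ppm peaks was 9.52%. It became 12.2% when under 50% of bases had to be covered and 8.83% with 1000 ppm peaks widened by 150 bp. With both CO2 lists cut to 15345 peaks it was 10.8% (1654 peaks), and in the strongest 25% it was 0.0632% (3 peaks). The shares found were computed with the 1809 members kept and only the searched lists cut to equal length. They were 5.36% (control), 13.2% (ABA 4 h), 11.8% (ABA 24 h), 5.03% (mutant control) and 4.09% (mutant ABA). Of the members, 5.69% were then in a control list and no ABA list, and 15.8% the reverse. The shares of control members also found after ABA were 28.9% (4 h), 27.8% (24 h) and 9.89% (mutant). Requiring 50% cover gave 47.8% for the control and 31.7% for the mutant control. In the stronger 50% of members the shares were 60.3%, 28.0% (24 h), 41.5% (mutant control) and 8.18% (mutant ABA). Members at least 500 bp from any 1000 ppm peak, an alternative chosen after seeing the data like those on the control and ABA split, gave 15.4% (4 h), 21.9% (24 h), 37.6% (mutant control), 36.7% for control without ABA, 5.88% for the reverse, 30.5% for control members also found after 24 h, 52.9% inside genes and 12.7% elsewhere. With 500 bp or 2 kb as near, the share near genes was 24.7% or 46.3% and elsewhere 27.2% or 5.53%. The number of listed genes with a member was 23 with a 500 bp window and 36 with 3 kb, against 29. Depth per sample is unknown, and the share of members found in a list was lower when that list was cut. The cause was not tested.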

Other observations

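A stretch of chromosome 1, chosen after its values were seen, held many members. From 25 to 29 Mb, 151 of 950 peaks at 100 ppm (15.9%, 13.6 to 18.4%) were members, against 9.19% in the rest of the genome, and within the lower 50% of ranks 31.2% against 17.95%. For 1000 ppm-only peaks the shares were 6.12% (4.66 to 7.87%) and 7.40%. Members there were found in the guard cell control in 48.3% of cases, and in 52.5% elsewhere. By chromosome the share of members was between 8.89% (chromosome 2) and 10.05% (chromosome 1).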
